A study of Pongo abelii with 8 samples.

Results

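Markers of pluripotent stem cells, the 9 genes POU5F1, NANOG, LIN28A, L1TD1, DPPA4, PODXL, CD24, PIM2 and ALPL, were followed at every probe set that the platform annotation gives to them. These are 14 of the 22277 probe sets of the array. CD24 has 6 probe sets and each of the other 8 genes has 1. RNA of 8 orangutan cultures was measured on human single-colour Affymetrix arrays, 6 from induced pluripotent stem cell (iPSC) colonies and 2 from skin fibroblasts. The iPSCs were 3 colonies from KB10973, a 29 year old male Sumatran orangutan, and 3 colonies from KB10460, a 43 year old female. They were derived from dermal fibroblasts by retroviruses that carried human OCT4 (POU5F1), SOX2, KLF4 and c-MYC. They were set against 1 culture of untransduced dermal fibroblasts from each of the same animals, and the labels give all cultures as healthy control in genotype.

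Several points limit these groups as a model. The colonies of an animal are not independent animals, so every p-value measures the spread between cultures of 2 orangutans. Colonies were plated on mouse embryonic fibroblasts for expansion, and the mouse share of the RNA was not measured. Colonies had been chosen by their appearance and for a surface antigen of the TRA-1 family, an epitope carried by the protein of PODXL. The PODXL difference is therefore not independent of how the colonies were picked. The array signal also cannot tell retroviral POU5F1 RNA from endogenous POU5F1 RNA. All cultures are bulk samples, in which fewer cells of a type and less RNA per cell cannot be told apart.

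Pluripotent cells can form all tissues of the body. Their state is held by a small circuit of transcription factors, with OCT4, NANOG and SOX2 at its centre, which keep their own genes and many others active. Around this circuit stand RNA-binding proteins, such as LIN28A, which blocks the maturation of let-7 microRNAs, and a set of cell surface molecules and enzymes that are used to recognise the cells. Fibroblasts of the skin keep most of these genes silent and make collagens and other matrix proteins.

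The array was designed on human transcripts, so the match of its probes to orangutan sequence bears on each value. The study's supplement aligns the probes of 7 of the 14 probe sets, 82 probes in all, to orangutan sequence. Every probe matched the upper row of its alignment letter for letter, although the heading gives that row as orangutan, and the lower row was therefore read as the orangutan sequence. Of the 80 probes aligned over their whole length of 25 bases, 38 had no difference from it. LIN28A, NANOG and PIM2 are shown here because they cover the best match, the largest number of differences in a probe and the smallest change between the cell types. Each line gives a human probe from its 5′ end, and a capital letter marks a base that differs from the orangutan sequence or is missing from it.
LIN28A probe 1: cacactactgtattttggatggatc
LIN28A probe 10: ttgctgtactgggtacttcctttcc
LIN28A probe 2: gatggatcaaacctCcttaatttta
LIN28A probe 6: gcaggtgctagaaacTttatgtcaa
LIN28A probe 11: tttaacacaAgctgactcttccctt
NANOG probe 1: gacattttaataaccttggctgcta
NANOG probe 10: ttcctttagttgattttaccctgat
NANOG probe 6: GctatatcccctaAtttgttggttG
NANOG probe 8: agaggtctTGtatttgcTgcatcGt
NANOG probe 9: gcTgcatcGtaatgacatGagtacT
PIM2 probe 2: ttacttgggcaagggtgctttcctt
PIM2 probe 11: aagccatgtgtggaaacccactatt
PIM2 probe 1: aacttagttcatatgctTttacttg
PIM2 probe 8: ggtgagaagaaccttaAttccataa

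The 3 LIN28A probes with a capital letter are all those that differ, and the other 8 of 11 had no difference. In PIM2, 7 of 11 probes had no difference and the other 4 had 1 differing base each. The NANOG probes shown with 3 or 4 capitals are the most divergent of that set, and probes 8 and 9 overlap, so that they share 2 of their differing bases. In NANOG, 6 of the 11 probes carried 2 or more differing bases. PODXL also had 6 such probes of 11 and DPPA4 had 3 of the 9 that aligned over their whole length, while POU5F1, LIN28A and PIM2 had none. CD24 is represented in the supplement by 1 of its 6 probe sets, 266_s_at, in which 10 of 16 probes had no difference. Over the aligned target, 1.68% of bases differed in LIN28A, 1.82% in PIM2, 2.30% in CD24, 2.36% in POU5F1, 4.27% in NANOG, 4.53% in DPPA4 and 5.04% in PODXL. These shares count human bases missing from the orangutan sequence but leave out bases that only the orangutan sequence holds. Such added bases occur in the CD24 alignment, among others, so its share is a minimum. The probe counts above do treat them as differences. Probe sequences of L1TD1, ALPL and the other 5 CD24 probe sets were not analysed here.

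**Figure D1:**
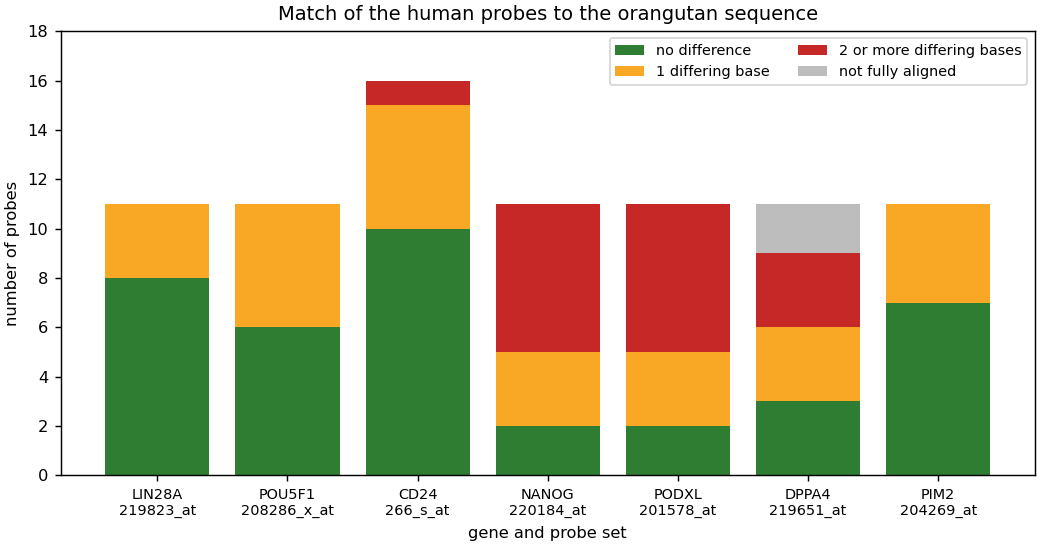
Number of probes (vertical axis) of each aligned probe set (horizontal axis), split by how many bases differ between the human probe and the orangutan sequence. A base missing from the orangutan sequence, or a place where it holds added bases, counts as 1 differing base. Green, probes with no difference, fills 8 of 11 in LIN28A and 2 of 11 in NANOG and in PODXL, and red, probes with 2 or more differing bases, is largest in NANOG and PODXL.

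All 14 probe sets were called higher in the iPSCs than in the fibroblasts, with log2 fold changes of 1.12 (PIM2) to 7.77 (a CD24 probe set). The call required a fold over 1.5 and a limma p under 0.05 after Benjamini-Hochberg adjustment over all 22277 probe sets. By the same rule 12.2% of all probe sets were called higher and 9.6% lower, 21.8% in either direction. In all 14 each of the 6 iPSC arrays lay above both fibroblast arrays, which held for 19.8% of all probe sets. The median log2 fold change of the 14 was 3.79, beside -0.01 over all probe sets. In 11 of the 14 the rise was over 4-fold, a size that 2.2% of all probe sets reached with a call, and DPPA4, PIM2 and ALPL were the 3 below it. The genes were chosen because they are known to be active in pluripotent cells and with earlier results of these arrays known, so their direction is a description.

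**Figure D2:**
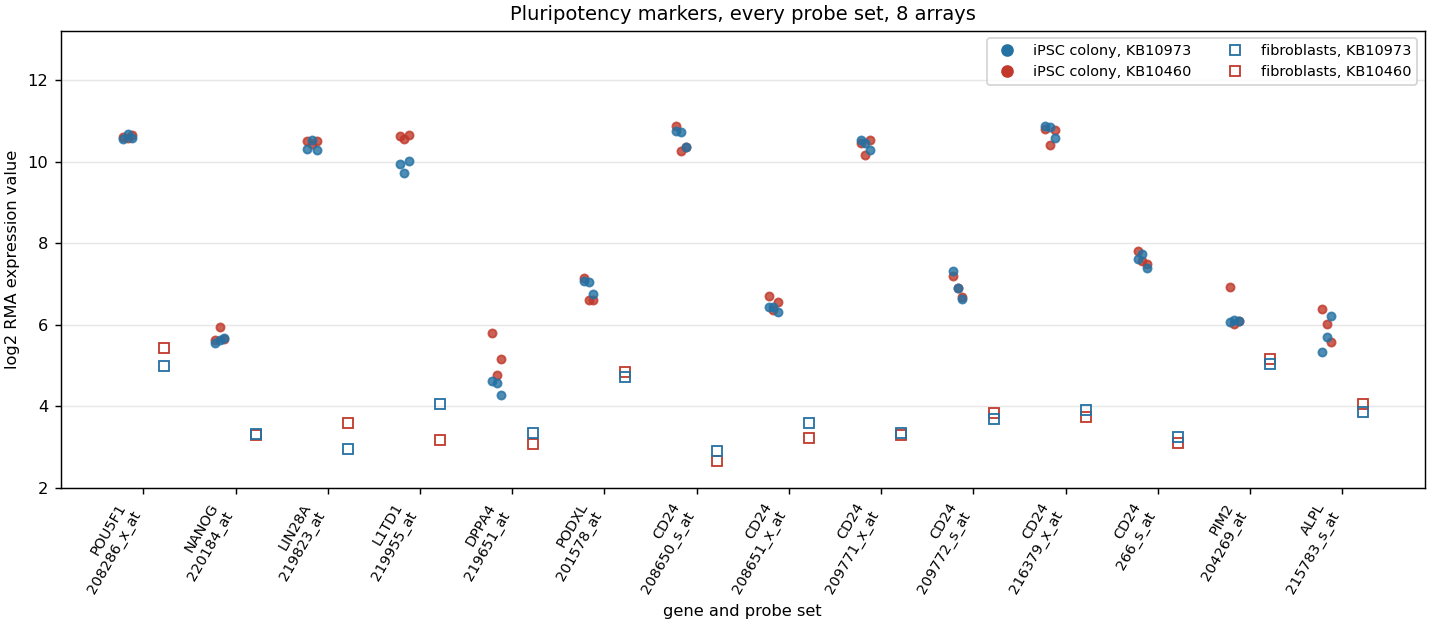
Deposited log2 RMA expression value (vertical axis) of each of the 14 probe sets (horizontal axis) on every array, with iPSC colonies as filled circles on the left and fibroblasts as open squares on the right of each position. The lowest iPSC array stands above the higher fibroblast array in all 14 probe sets, by 0.85 log2 units in PIM2 and by 7.37 in CD24 208650_s_at.

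Among the transcription factors, POU5F1, which encodes OCT4, had log2 values of 10.56, 10.67 and 10.59 in the KB10973 colonies and 10.61, 10.58 and 10.66 in the KB10460 colonies, against 5.00 in KB10973 and 5.44 in KB10460 fibroblasts. The colonies were within a range of 0.12 log2 units, the narrowest of the 14 probe sets, and were far from both fibroblast cultures. The log2 fold change was 5.39 (standard error 0.11, limma adjusted p = 2.2e-09), 42.1-fold. The probe set carries 4 gene symbols, those of POU5F1 and of 3 near-identical copies, and cannot be assigned to POU5F1 alone. Probe sets annotated to a single copy behaved likewise, with POU5F1P3 at 9.88 ± 0.09 in 6 iPSC arrays against 3.46 ± 0.06 in 2 fibroblast arrays (SD). POU5F1P4 had 9.86 ± 0.10 in iPSCs against 3.61 ± 0.13 in fibroblasts, and POU5F1B had 10.83 ± 0.09 in iPSCs against 5.28 ± 0.13 in fibroblasts. Signal from POU5F1, its copies and the vector is uncertain to separate on these probes. In the fibroblasts the POU5F1 probe set ranked at percentile 71.0 to 76.4 of the array, so this signal was not among the dimmest there.

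NANOG, the homeobox factor that sustains self-renewal, had log2 values of 5.56, 5.62 and 5.68 in the KB10973 colonies and 5.64, 5.95 and 5.65 in the KB10460 colonies, against 3.33 in KB10973 and 3.30 in KB10460 fibroblasts. Colony 2 of KB10460 stood above the other 5 colonies, which were within 0.12 log2 units of each other, and no colony came near the fibroblasts. Its log2 fold change was 2.37 (standard error 0.10, limma adjusted p = 3.5e-07), 5.17-fold. Its 11 probes hold the most divergent ones shown above, and the part of these differences in the size of its change was not tested.

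The RNA-binding proteins had some of the largest changes. LIN28A had log2 values of 10.31, 10.53 and 10.30 in the KB10973 colonies and 10.51, 10.45 and 10.50 in the KB10460 colonies, against 2.97 in KB10973 and 3.58 in KB10460 fibroblasts. The 6 colonies were alike within 0.23 log2 units, and the fibroblast values ranked at percentile 7.33 in KB10973 and 40.8 in KB10460. The log2 fold change was 7.16 (standard error 0.15, limma adjusted p = 2.6e-09), 143-fold.

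L1TD1, an RNA-binding protein derived from a LINE-1 element, had log2 values of 9.95, 9.73 and 10.02 in the KB10973 colonies and 10.63, 10.55 and 10.66 in the KB10460 colonies, against 4.07 in KB10973 and 3.18 in KB10460 fibroblasts. Every KB10460 colony was above every KB10973 colony, while the fibroblasts had the opposite order. The log2 fold change over all arrays was 6.63 (standard error 0.31, limma adjusted p = 5.1e-07), 99.2-fold.

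DPPA4, a nuclear protein that associates with active chromatin in pluripotent cells, had log2 values of 4.62, 4.58 and 4.28 in the KB10973 colonies and 5.80, 4.78 and 5.16 in the KB10460 colonies, against 3.35 in KB10973 and 3.07 in KB10460 fibroblasts. Colony 1 of KB10460 was the highest and colony 3 of KB10973 the lowest, and this spread (SD 0.54 over the 6 colonies) was the widest of the 14 probe sets. The groups did not overlap, and the log2 fold change was 1.66 (standard error 0.34, limma adjusted p = 0.0051), 3.16-fold. This call was lost with the Benjamini-Yekutieli adjustment (limma adjusted p = 0.054).

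Of the surface molecules, PODXL, which encodes the sialomucin podocalyxin, had log2 values of 7.06, 7.05 and 6.76 in the KB10973 colonies and 7.15, 6.62 and 6.60 in the KB10460 colonies, against 4.73 in KB10973 and 4.85 in KB10460 fibroblasts. The colonies formed an upper set of 3 and a lower set of 3 that cut across the animals, and all were above the fibroblasts. PODXL rose by a log2 fold change of 2.08 (standard error 0.16, limma adjusted p = 1.5e-05), 4.24-fold. The fibroblast signal of PODXL ranked at percentile 67.8 to 69.6 of the array. Both fibroblast values were below a log2 value of 5, and whether they exceeded background was not tested.

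CD24, a glycoprotein tethered to the membrane by a lipid anchor, allowed the agreement between probe sets to be examined. Probe set 208650_s_at had log2 values of 10.76, 10.72 and 10.36 in the KB10973 colonies and 10.87, 10.27 and 10.36 in the KB10460 colonies, against 2.91 in KB10973 and 2.67 in KB10460 fibroblasts. Probe set 209771_x_at had 10.52, 10.46 and 10.29 in the KB10973 colonies and 10.45, 10.17 and 10.53 in the KB10460 colonies, against 3.34 and 3.29 in KB10973 and KB10460 fibroblasts. Probe set 216379_x_at had 10.89, 10.85 and 10.58 in the KB10973 colonies and 10.80, 10.40 and 10.78 in the KB10460 colonies, against 3.91 and 3.73 in KB10973 and KB10460 fibroblasts. These 3 probe sets thus gave high signals on every iPSC array and low ones on both fibroblast arrays, with log2 fold changes of 7.77 (standard error 0.17), 7.09 (standard error 0.11) and 6.89 (standard error 0.13).

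The other CD24 probe sets had smaller changes. Probe set 266_s_at had log2 values of 7.61, 7.73 and 7.39 in the KB10973 colonies and 7.82, 7.56 and 7.50 in the KB10460 colonies, against 3.25 in KB10973 and 3.11 in KB10460 fibroblasts. Probe set 209772_s_at had 7.33, 6.89 and 6.64 in the KB10973 colonies and 7.21, 6.90 and 6.69 in the KB10460 colonies, against 3.70 and 3.85 in KB10973 and KB10460 fibroblasts. Probe set 208651_x_at had 6.43, 6.44 and 6.30 in the KB10973 colonies and 6.70, 6.35 and 6.56 in the KB10460 colonies, against 3.60 and 3.23 in KB10973 and KB10460 fibroblasts. Their log2 fold changes were 4.42 (standard error 0.12), 3.17 (standard error 0.18) and 3.05 (standard error 0.13). All 6 CD24 probe sets were called, with limma adjusted p-values of 4.2e-10 to 2.0e-06, and their median log2 fold change was 5.66.

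The measured size of the CD24 change differed between the probe sets. The 6 probe sets form 15 pairs, and in 13 of them the changes differed by over 1.5-fold at an adjusted p under 0.05, in a limma fit of the difference between 2 probe sets of a gene on each array, over 11682 pairs in 4310 genes. Over all these pairs the share was 20.6%, and among the 101 pairs of which both members rose over 4-fold it was 41.6%. Both shares include the 15 CD24 pairs and their 13 calls, so the 41.6% is partly made of the pairs set beside it. The pairs share probe sets, so they are not independent of each other. The largest difference was that of 208650_s_at minus 208651_x_at, 4.72 log2 units (standard error 0.16, limma adjusted p = 7.3e-09). Most of it lay in the iPSC values, with means of 10.56 and 6.46, against 2.79 and 3.42 in the fibroblasts. The fibroblast values of 208650_s_at ranked at percentile 0.157 to 4.69 and those of 208651_x_at at percentile 21.0 to 43.0, so that these are signals over background, and neither the folds nor their difference measure CD24 RNA exactly. Within the upper set, 209771_x_at minus 216379_x_at differed by 0.19 (95% interval -0.05 to 0.43, limma adjusted p = 0.26). Within the lower set, 208651_x_at minus 209772_s_at differed by -0.12 (95% interval -0.56 to 0.32, limma adjusted p = 0.74). These were the 2 pairs not called, and their intervals do not show that the changes were equal. Without the KB10460 fibroblast array 208650_s_at minus 209771_x_at was no longer called either (0.59, limma adjusted p = 0.078), which leaves 12 pairs.

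In the maker's naming, x_at marks probe sets that may bind other sequences and s_at those that are shared by several transcripts. The high set held 1 s_at and 2 x_at probe sets and the low set 2 s_at and 1 x_at. The part of these types in the split was not tested. The annotation gives CD24 as the single symbol of all 6.

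**Figure D3:**
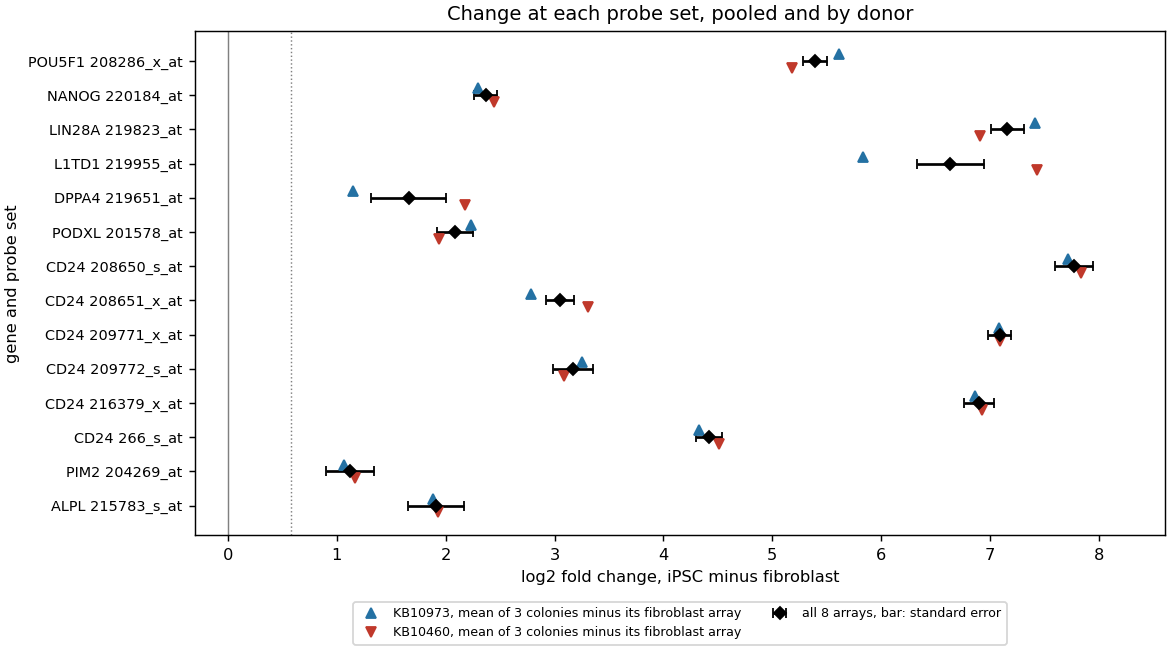
Log2 fold change of iPSCs minus fibroblasts (horizontal axis) at each probe set (vertical axis), as the limma estimate over all 8 arrays with its standard error (diamonds), and as the mean of 3 colonies minus the fibroblast array within KB10973 (upward triangles) and KB10460 (downward triangles). The dotted line is the 1.5-fold threshold. The CD24 probe sets fall into 3 changes of 6.89 to 7.77 and 3 of 3.05 to 4.42, and the triangles of L1TD1 (5.83 in KB10973 and 7.43 in KB10460) stand apart.

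The last members are enzymes. PIM2, a serine/threonine kinase that promotes survival and growth, had log2 values of 6.07, 6.13 and 6.10 in the KB10973 colonies and 6.92, 6.02 and 6.09 in the KB10460 colonies, against 5.03 in KB10973 and 5.17 in KB10460 fibroblasts. Colony 1 of KB10460 stood far above the other 5 colonies, which were within 0.11 log2 units of each other, and the groups did not overlap. The log2 fold change of 1.12 (standard error 0.22, limma adjusted p = 0.0042), 2.17-fold, was the smallest of the 14. Without that colony it was 0.98 and still called.

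ALPL, the tissue-nonspecific alkaline phosphatase whose activity is a common stain for pluripotent colonies, had log2 values of 5.33, 5.71 and 6.21 in the KB10973 colonies and 6.38, 6.01 and 5.58 in the KB10460 colonies, against 3.86 in KB10973 and 4.06 in KB10460 fibroblasts. The colonies of both animals were spread over the same range and all were above the fibroblasts. ALPL rose by a log2 fold change of 1.91 (standard error 0.26, limma adjusted p = 0.00040), 3.76-fold. ALPL is also an enzyme of mineralising bone, and of 4 measured bone-lineage genes only SPP1, which encodes osteopontin, was called (log2 fold change 5.17, limma adjusted p = 0.00098). RUNX2, IBSP and PHEX were not called. The summed level of the 4 genes on the linear scale was 196 to 1254 in the iPSCs and 42.6 to 64.2 in the fibroblasts. SPP1 made up most of the iPSC sum, and RUNX2, IBSP and PHEX had mean log2 values of 3.46, 3.55 and 3.29 there. The median log2 fold change of the 4 genes was -0.05. The part of bone-lineage expression in the ALPL result was not tested.

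Between the iPSCs of the animals no member was called, KB10973 minus KB10460, beside 0.0898% of all probe sets (20 in number). At an unadjusted limma p under 0.05 there were 2 of the 14 probe sets and 2265 of all 22277. These were L1TD1 and DPPA4. L1TD1 averaged 9.90 in the KB10973 colonies and 10.61 in the KB10460 colonies, a difference of -0.72 (95% interval -0.94 to -0.49, limma adjusted p = 0.059). DPPA4 averaged 4.49 in the KB10973 colonies and 5.25 in the KB10460 colonies, a difference of -0.75 (95% interval -1.31 to -0.19, limma adjusted p = 0.35). The colonies of the animals did not overlap in L1TD1 and DPPA4, as in 14.7% of all probe sets, and overlapped in the other 12. For POU5F1 the difference was -0.01 (95% interval -0.19 to 0.16), the narrowest interval among the members, and for ALPL it was -0.24 (95% interval -0.85 to 0.36), the widest.

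The change from fibroblasts was compared between the animals as well, with 1 fibroblast array per animal. The limma p therefore takes its spread from the colonies, and the spread between fibroblast cultures of an animal was not measured. L1TD1 was the single member past the threshold, beside 2.91% of all probe sets. Its log2 fold change was 5.83 in KB10973 and 7.43 in KB10460, a difference of -1.60 (standard error 0.19, limma adjusted p = 0.0073). The fibroblast arrays contributed 0.89 of this difference and the colonies 0.72, and the fibroblast values of 4.07 in KB10973 and 3.18 in KB10460 ranked at percentile 56.8 and 18.2 of their arrays. LIN28A rose by 7.41 in KB10973 and 6.90 in KB10460 (difference 0.51, limma adjusted p = 0.22). POU5F1 rose by 5.61 in KB10973 and 5.18 in KB10460 (difference 0.43, limma adjusted p = 0.22). These 2 differences and that of CD24 208651_x_at (-0.52) did not pass the threshold.

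The colonies also varied in a way that did not follow the animals. Colony 1 of KB10460 had the highest value in 7 of the 14 probe sets and in 5 of the 9 genes (DPPA4, PODXL, CD24 at 3 probe sets, PIM2 and ALPL), beside 19.2% of all probe sets and 33.2% of those called higher in iPSCs. Its excess over the mean of the 6 colonies was 0.93 in DPPA4, 0.70 in PIM2, 0.51 in ALPL and 0.28 in PODXL, and it was 0.00 in POU5F1 and -0.04 in NANOG. Colony 3 of KB10973 was the lowest in 5 probe sets, 3 of them of CD24, beside 15.4% of all probe sets and 13.8% of those called higher. The SD over the 6 colonies ran from 0.05 to 0.54 with a median of 0.22 over the 14 probe sets, beside 0.20 over all probe sets called higher and 0.13 over all probe sets.

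Genes of early differentiation were read in the same colonies. Of 9 measured genes of that list, GATA6, AFP and TBXT were called higher in the iPSCs and the other 6 were not called. Their summed level on the linear scale was 395, 262 and 627 in KB10973 colonies 1, 2 and 3 and 233, 712 and 815 in KB10460 colonies 1, 2 and 3, against 116 in KB10973 and 130 in KB10460 fibroblasts. It was lowest in KB10460 colony 1, followed by KB10973 colonies 2 and 1. GATA6 made up a large part of it, and the sum of the other 8 genes was 235, 195 and 315 in KB10973 colonies 1, 2 and 3 and 174, 247 and 293 in KB10460 colonies 1, 2 and 3, with the same 3 colonies lowest. GATA6, an endoderm transcription factor, had log2 values of 7.33, 6.05 and 8.28 in the KB10973 colonies and 5.88, 8.86 and 9.03 in the KB10460 colonies, against 3.79 in KB10973 and 3.47 in KB10460 fibroblasts. TBXT, the mesoderm factor brachyury, was at 4.74 in KB10460 colony 1 and at 6.02 to 7.34 in the other 5 colonies. AFP, the fetal serum protein of yolk sac and liver, did not share this order, with 6.35, 5.51 and 5.95 in the KB10973 colonies and 6.27, 5.43 and 6.37 in the KB10460 colonies. The same 3 colonies, KB10460 colony 1 and KB10973 colonies 1 and 2, were the highest 3 for PODXL and for 3 CD24 probe sets, together 4 of the 14. This held for 6.72% of all probe sets and 11.9% of those called higher. The comparison was made after both patterns had been seen, and the part of differentiating cells in the PODXL and CD24 values was not tested. NANOG had another order, with its highest value in KB10460 colony 2 (5.95). The mean log2 value of the pluripotency markers SOX2, DNMT3B, GDF3 and TERF1 was also highest in that colony (9.09). That mean was lowest in KB10973 colony 1 (8.40). Of these markers only GDF3 was itself highest in KB10460 colony 2 (9.64). SOX2 (7.38) and DNMT3B (11.42) were highest in KB10460 colony 1, and TERF1 (8.51) in KB10973 colony 1, so the markers did not share an order.

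**Figure D4:**
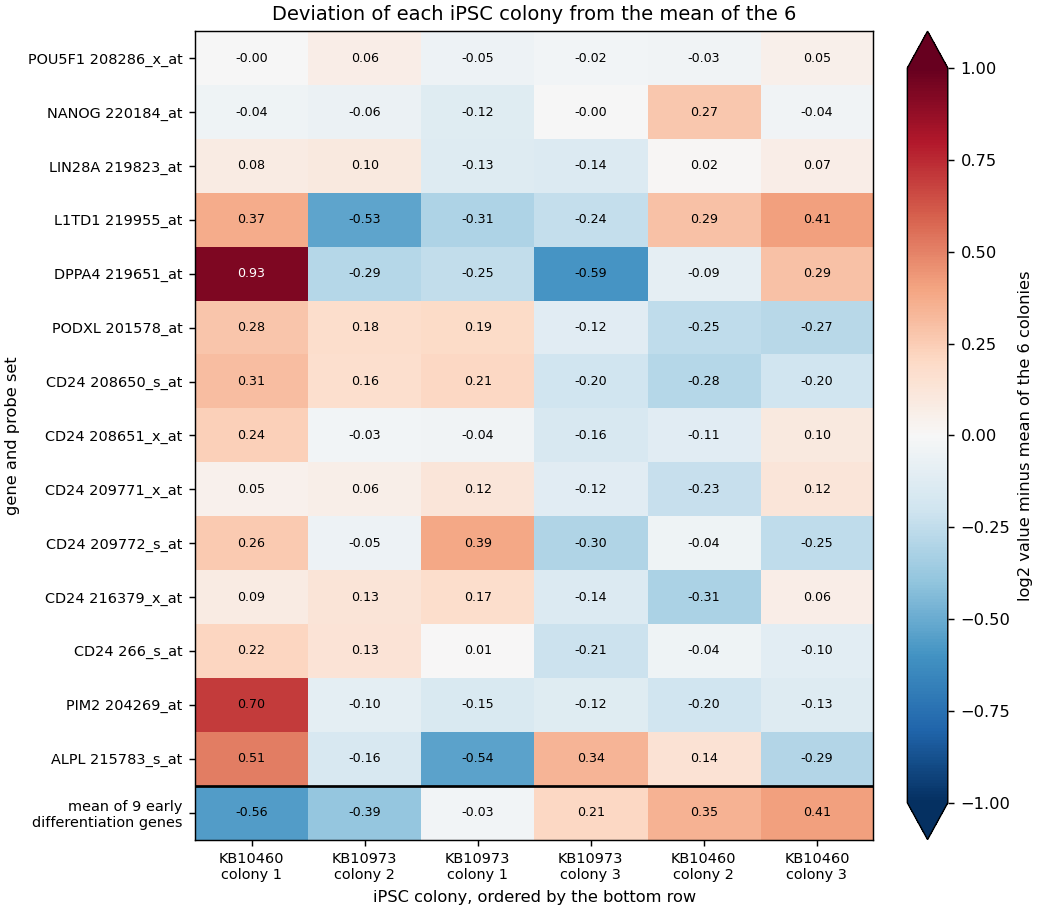
Log2 value of each iPSC colony (horizontal axis) minus the mean of the 6 colonies, for each of the 14 probe sets (vertical axis), with the mean log2 value of 9 early differentiation genes in the bottom row, by which the colonies are ordered from low to high. PODXL and CD24 208650_s_at are above the mean in the 3 colonies on the left and below it in the 3 on the right, L1TD1 is above the mean in the KB10460 colonies and below it in the KB10973 colonies, and PIM2 is far above it in KB10460 colony 1.

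The labelled cell types were checked with other markers. All 4 measured markers of pluripotent cells (SOX2, DNMT3B, GDF3 and TERF1) were called higher in the iPSCs, and 9 of 10 fibroblast markers, among them DCN, COL3A1 and FAP, were called lower. SOX2 was also carried by the vectors, and the part of vector RNA in its signal was not tested. The exception was THY1, which was higher in the iPSCs (6.82 ± 0.26, SD, n = 6) than in the fibroblasts (4.03 ± 0.45, SD, n = 2), and THY1 is also found on human pluripotent cells. COL1A2 still had a mean log2 value of 7.58 in the iPSCs against 12.89 in the fibroblasts. DCN, COL3A1 and FAP had means of 3.78, 3.73 and 3.20 in the iPSCs, against 12.45, 11.26 and 9.80 in the fibroblasts. The part of residual fibroblasts in the members' iPSC values was not tested.

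Other genes of the pluripotency network were called in part. Of 41 listed genes 28 had a probe set with a single symbol, of which 17 were called higher, 1 lower and 10 were not called, with a median log2 fold change of 1.61. Among those not called, TERT, ESRRB, FOXD3, TFCP2L1, RIF1 and NODAL had mean log2 values of 3.01 to 3.72 in iPSCs and 3.09 to 3.47 in fibroblasts. NR5A2, VRTN, LEFTY1 and NR6A1 had 3.63 to 5.29 in iPSCs and 3.86 to 4.92 in fibroblasts. Whether these values exceeded background was not tested. The largest changes were those of the adhesion molecule EPCAM (5.84), the DNA methyltransferase DNMT3B (5.58) and the Polycomb genes PHC1 (5.04) and JARID2 (4.90). KLF4, 1 of the vector genes, was the gene called lower (-0.74, limma adjusted p = 0.040).

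Relatives of the members mostly did not pass the test. Of 14 measured relatives 4 were called higher, the 3 POU5F1 copies above and the kinase PIM1 (log2 fold change 1.35, limma adjusted p = 9.6e-05), none was called lower and 10 were not called. The median over the 14 was 0.11. PIM1 ranged over 5.77 to 6.17 in the iPSCs, against 4.39 in KB10973 and 4.90 in KB10460 fibroblasts. The placental alkaline phosphatase ALPP, by contrast with ALPL, had a mean log2 value of 3.19 in iPSCs and 3.45 in fibroblasts (limma adjusted p = 0.086), and PODXL2 had 3.56 in iPSCs and 3.31 in fibroblasts (limma adjusted p = 0.11).

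Genes that act with LIN28A and PIM2 were called in most cases. Of 13 measured genes 9 were called higher, 3 lower and 1, CDKN1B, was not called. IGF2BP3, ARID3B and HMGA2 had log2 fold changes of 4.10, 3.38 and 1.93. CCND1, which encodes cyclin D1, was lower, at 7.52 ± 0.16 (SD, n = 6) in iPSCs against 9.78 ± 0.69 (SD, n = 2) in fibroblasts (log2 fold change -2.26, limma adjusted p = 6.0e-05). The other 2 called lower were the cell death gene BAD, a PIM kinase substrate (-0.77), and TUT7, a uridylyl transferase that acts on let-7 precursors (-0.75).

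The genes outside the list whose values followed the members most closely over the 8 arrays were NET1, a guanine nucleotide exchange factor (Pearson r = 0.999 with the mean of the 9 genes), the mitotic cyclin CCNB1 (0.998), POU5F1P3 (0.998), DNMT3B (0.997) and the deubiquitinase UCHL1 (0.997). Of 11955 genes compared, 80 had an r over 0.99. Such an r is set mainly by the difference between the cell types and carries no test. Among the members r with that mean was lowest for DPPA4 (0.892), PIM2 (0.903) and ALPL (0.947), the genes with the smallest changes.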

How the data were processed

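Total RNA of 8 cultures was labelled with biotin and hybridised to human Affymetrix GeneChip arrays of 22277 probe sets. The authors applied RMA in WebArray, which corrects background, equalises the distributions of the arrays and summarises the probes of a probe set, and deposited log2 expression values (array medians 3.74 to 3.82). A change shared by most transcripts is lost in this step, and the lowest values are background, which understates folds. Precision is limited by having 8 arrays.

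These values were fitted with limma (version 3.58.1, R version 4.3.3, functions lmFit and eBayes, two-sided tests) to compare 6 iPSC with 2 fibroblast arrays, the iPSCs of the animals, the change between animals, and the differences between probe sets of a gene, each over the whole table. The threshold was 1.5-fold and 0.05 for the p adjusted by Benjamini-Hochberg. Fold changes are iPSC minus fibroblast. Scripts were tested on simulated data. Probes and figures were handled in Python 3.11.15.

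The members, gene lists, tests and rules were chosen with earlier results of these data known. Members are all probe sets annotated with a member symbol, 13 with 1 symbol and 1, that of POU5F1, with 4. Beside the members, the rule names the 4 called genes of each list with the largest change, genes called against the direction of their list, and the 5 genes most correlated with the mean of the members. For that mean POU5F1 entered with its probe set of 4 symbols. Other listed genes were read at the probe set with 1 symbol and the highest mean. Marker genes of other cell types are named where they stand beside a result.

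Each animal gave both fibroblasts and iPSCs, and the arrays can be paired by animal on that ground. The main fit of iPSCs against fibroblasts had no donor term, and the donor block was an alternative. Across probe sets, KB10973 minus KB10460 in iPSCs and in fibroblasts correlated at 0.02. Equal colony numbers in the animals mark no shared origin in the labels.

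Markers of 4 further cell types were read as well. None of 4 keratinocyte genes was called. Of 3 melanocyte genes 1 was called higher. Of 4 endothelial genes 2 were called higher and 1 lower, and of 3 blood cell genes 1 was called lower. Alternatives changed the donor block, normalization, low-value filter (log2 over 5 on 2 arrays), moderation, array weights, averaging of colonies, thresholds, adjustment and the probe sets used, and left out each array.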

Additional observations from a re-analysis of the deposited data

Results flagged for a closer look

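In each of 14 groups of 6 colonies the extreme value was set against the spread of the group, and in 2 the gap to its neighbour passed the limit of Dixon's test at the 95% level. Chance gives such a gap in about 5% of groups. For NANOG the gap was 0.689 of the range, with KB10460 colony 2 standing 0.27 log2 units above the next colony. For PIM2 it was 0.883 of the range, with KB10460 colony 1 standing 0.80 log2 units above the next colony. L1TD1 differed between the animals in its change from fibroblasts by -1.60 log2 units, KB10973 minus KB10460. Each animal has 1 fibroblast array, so the spread between fibroblast cultures of an animal was not measured in this comparison.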

How the results depend on the processing

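The number of member probe sets called was 14 with the donor as a replicate block, as without it, and 14 without each array in turn (lowest 14, highest 14). With the colonies averaged within each animal it was also 14, with larger limma adjusted p-values of 0.00033 (CD24 209771_x_at) to 0.033 (DPPA4). It was 13 with the Benjamini-Yekutieli adjustment, which ended the call of DPPA4, and 13 where only probe sets with 1 symbol were read, which leaves out that of POU5F1. With the block, 2784 probe sets were called higher and 2168 lower in place of 2712 and 2138. At a fold over 2 there were 1704 higher and 1357 lower. Without each array in turn, 2255 to 2771 were called higher and 1986 to 2250 lower, 12 to 13 of the 15 CD24 pairs and 2061 to 2553 pairs of all genes differed. Without each iPSC colony in turn, 0 to 0 members were called between the animals and 1 to 1 in the difference of the change, and a fibroblast array cannot be left out of that difference because each animal has 1. The low-value filter left 462 unequal pairs of all genes, with fewer pairs tested, and 13 of CD24. The L1TD1 difference of the change was between -1.66 and -1.52 with limma adjusted p of 0.0066 to 0.027. The block on colony number left 0 members called between the animals, and the block changed no other member call. Fibroblast values of NANOG, DPPA4 and CD24 208650_s_at, 209771_x_at and 266_s_at rank at percentile 30.4 or lower on both fibroblast arrays, as do LIN28A, L1TD1 and CD24 208651_x_at on 1 of them, and signal over background limits the size of a fold there.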
